A study of Mus musculus with 12 samples.

Results

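The subject here is the set of nuclear genes that encode the subunits of the mitochondrial respiratory chain and ATP synthase, with the complex I assembly factors that share the Nduf prefix, in mouse dorsal root ganglia. Members were the protein-coding genes of the deposited count table whose names begin with Nduf followed by a, b, c, s or v, with Uqcr, with Cox4 to Cox8 or with Atp5, together with Sdha to Sdhd and Cyc1. The rule took 95 of 54532 genes, which carry 94 names because Atp5o has 2 entries, and it used no measured value. Of these, 92 passed the filter on low counts and were tested among 17002 genes. The 3 that did not pass were Cox7b2, with 36 counts over the control libraries and 8 over the DAAO libraries, and Cox8c and the second Atp5o entry, each at 0 counts in all 12 libraries. A count of 0 allows up to 3 counts in a library, for counting error alone.

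Dorsal root ganglia hold the cell bodies of sensory neurons with their glia, vessels and connective tissue. The study compared whole ganglia of C57BL/6 mice of 2 genotypes, and D-alanine was given in both. The 6 control libraries carry the genotype CDH5-Cre, in which the promoter of the endothelial cadherin gene drives Cre recombinase. The 6 DAAO libraries carry the genotype DAAO-TGCdh5, and DAAO, D-amino acid oxidase, makes hydrogen peroxide from D-alanine. Cre is named for the DAAO mice in their sample names and not in their genotype label. Neither the ages nor whether each library came from a separate animal is stated in the sources at hand, so the p-values measure the spread between these libraries, which may in part be technical.

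Complexes I and II pass electrons from NADH and succinate to ubiquinone, complex III passes them on to cytochrome c, and complex IV, cytochrome c oxidase, hands them to oxygen. Complexes I, III and IV pump protons across the inner mitochondrial membrane, and ATP synthase makes ATP as the protons flow back. Nuclear genes encode most of the subunits and all of complex II, while the mitochondrial genome encodes core subunits of the other complexes. Large sensory neurons with long axons have a high demand for ATP. Respiratory chain genes are transcribed under factors such as NRF1, GABP, YY1 and the estrogen-related receptors, which the coactivator PGC-1alpha assists.

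The libraries held from 13227518 to 23884927 counts. The 17 pan-neuronal markers were all tested, and none was at 0 in any library. Their summed level lay between 14308 and 22024 CPM (counts per library scaled to a common total) in controls and between 11539 and 19344 CPM in DAAO. Their fold changes are given with the other markers below. Controls 2 and 6 stood apart from the other libraries in mitochondrially encoded transcripts, which took 7.44% and 7.65% of their counts against 3.32% to 5.13% in the other 10. Fold changes are therefore given with all libraries and, for most genes named, also without controls 2 and 6. In whole ganglia, fewer cells of a type and less RNA per cell cannot be told apart.

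No subunit gene passed the test in either direction, in a comparison where 0.753% of all genes tested did (edgeR's quasi-likelihood test with Benjamini-Hochberg adjustment, threshold 0.05). The smallest adjusted p was 0.185, that of the complex I assembly factor Ndufaf5. Log2 fold changes, always DAAO minus control, were nevertheless mostly negative, in 79 of 92 members (85.9%) against 49.6% of all genes, with a median of -0.20 against 0.00 for all genes. An unadjusted p under 0.05 was reached by 16 members, each lower in DAAO, while 10.3% of all genes reached it in either direction and 4.87% as lower. The control and DAAO libraries overlapped in all 92 members, whereas they did not overlap in 1.45% of all genes. A miss of the threshold does not show that these transcripts did not differ. The median SE of the log2 fold change was 0.18 over the 86 members other than the tissue isoforms of complex IV.

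The direction of the members as a group did not hold in the same fit without controls 2 and 6. These were the 2 highest libraries in 60 of 92 members, and no DAAO library was left out. For most members the omission was thus bound to raise DAAO minus control. A fit that also removed the length trend of each library is given below. Without these libraries the median log2 fold change of the members was 0.05 (all genes 0.03), and 41 of 92 were negative (44.6%, against 46.4% of all genes). The sign differed between the fits in 40 members, 39 of them negative with all libraries and positive without these. Again no member passed, with a smallest adjusted p of 0.0948 for Ndufa3, in a fit that called 3.63% of all genes. An unadjusted p under 0.05 was reached by 11 members higher in DAAO and 4 lower, where 9.7% and 9.11% of all genes were (18.8% in either direction). The 11 were Ndufa2, Ndufa3, Ndufb8, Ndufb10, Ndufb11, Ndufv3, Ndufaf8, Uqcr11, Cox6a1, Cox6b2 and Atp5k, and the 4 were Ndufaf4, Ndufaf5, Uqcrc2 and Atp5b. With control 2 alone left out the median was -0.10 and 59 members were negative, and with control 6 alone left out these were -0.14 and 69. The count of 16 members lower at an unadjusted p under 0.05 was 8 without control 2, control 6 or DAAO 2, and 24 and 27 without control 1 and control 4. Without control 2 there was also 1 member higher at that level. For the fits with 1 library left out, the share of all genes at that level was not computed.

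**Figure D1:**
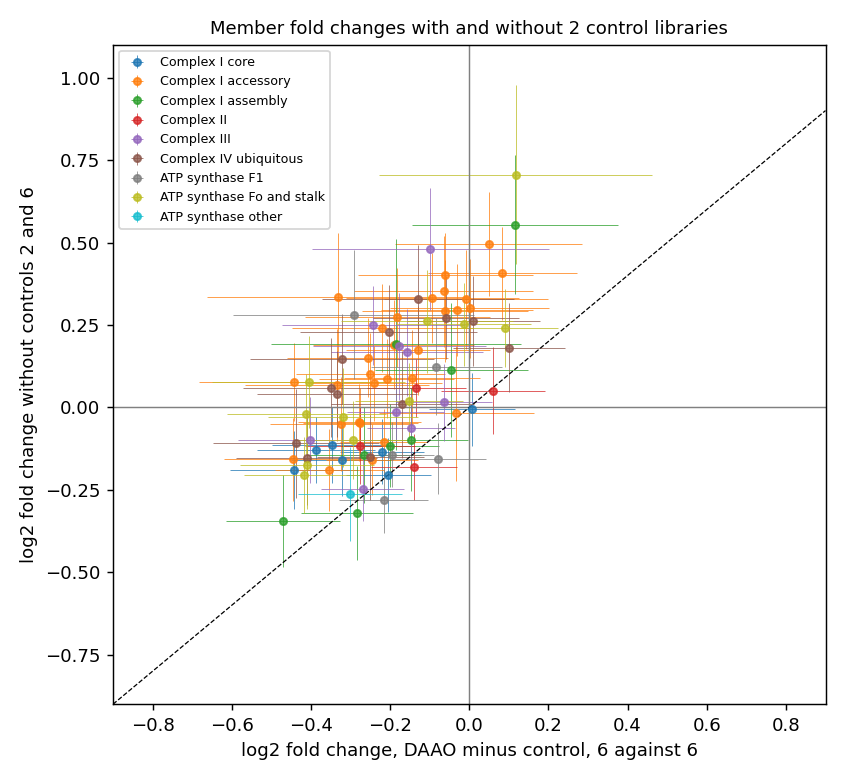
Each point is a member, coloured by complex, with its log2 fold change (DAAO minus control) from all 12 libraries on the horizontal axis and from the fit without controls 2 and 6 on the vertical axis. Bars are 1 SE and the dashed line marks equality; the 6 tested tissue isoforms of complex IV are left out. The points lie mostly left of 0 on the horizontal axis and on both sides of 0 on the vertical axis.

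Library by library, the subunit transcripts of control 2 were above their own 12-library median in 91 of 92 members, and those of control 6 in 80. Control 2 was the highest library in 58 members and control 6 in 21, and these were the 2 highest libraries in 60 of 92. Together the members took 1.76% of counts in control 2 and 1.52% in control 6, against 1.02% to 1.22% in the other 4 controls and 1.08% to 1.30% in DAAO. At the other end, control 4 was among the 2 lowest libraries in 50 members and DAAO 2 in 36. The mean centred log2 CPM of the 92 members was 0.66 in control 2 and 0.33 in control 6. It lay between -0.23 and -0.05 in the other 4 controls and between -0.20 and 0.10 in DAAO, ranges that overlap.

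**Figure D2:**
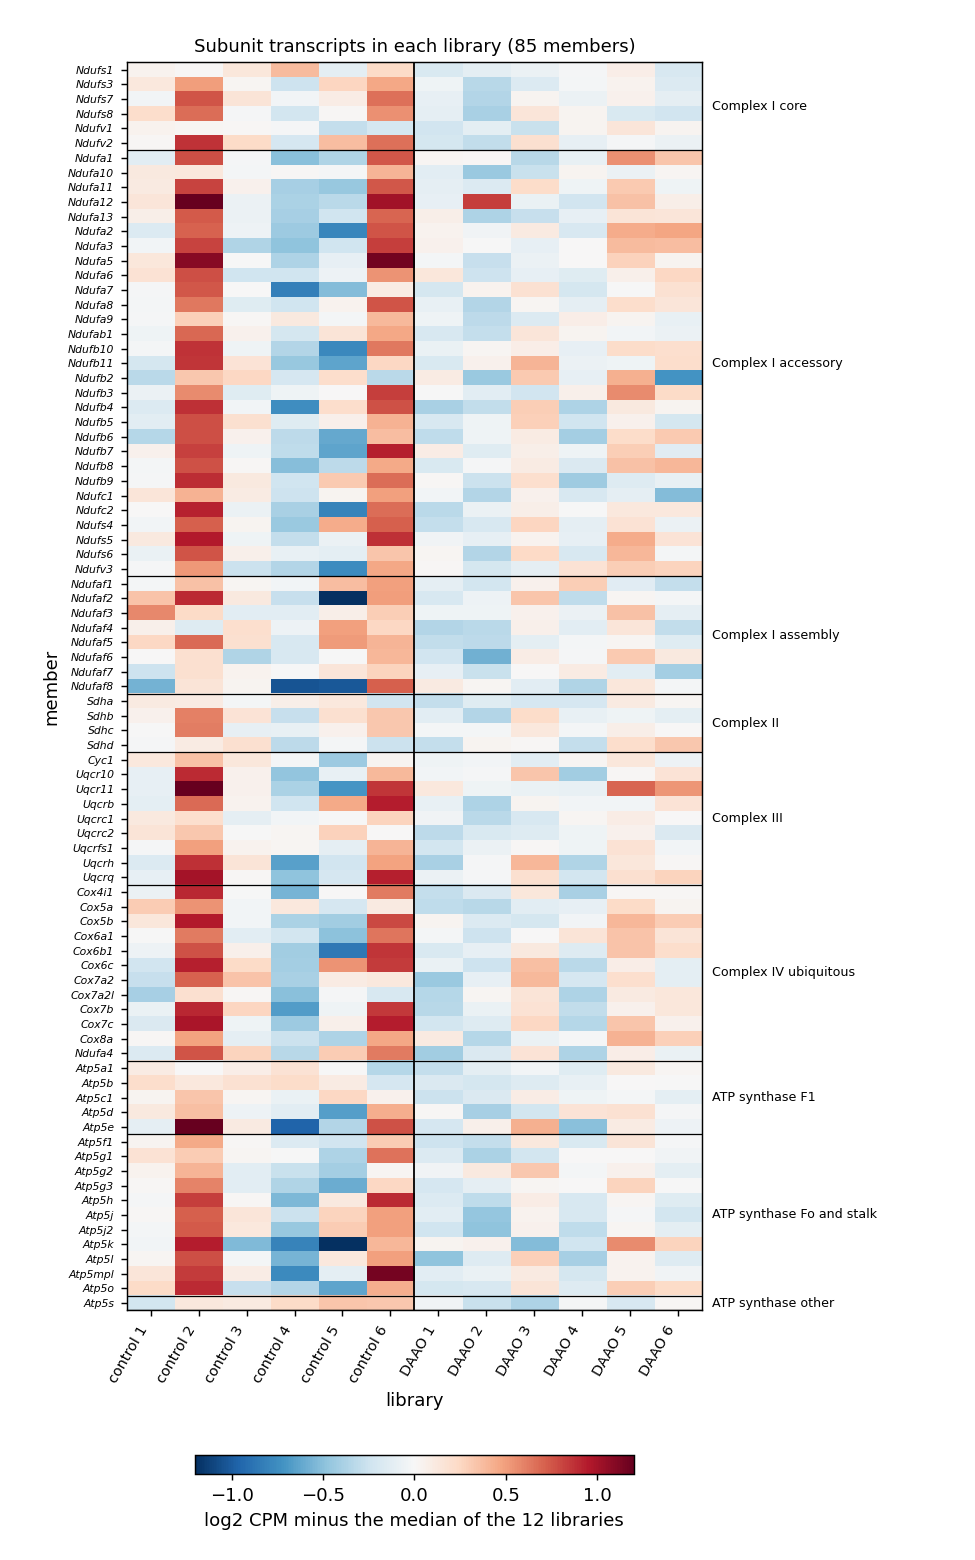
The colour gives the log2 CPM of each member (rows, by complex) in each library (columns) minus its median over the 12 libraries, for 85 of the 86 tested members outside the complex IV tissue isoforms. Controls 2 and 6 are red in most rows.

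The members varied more between control libraries than between DAAO libraries. Over the members, SDs of log2 CPM had a median of 0.43 among controls and of 0.21 among DAAO libraries, against 0.43 and 0.27 over all genes, and it was larger in controls for 85 of 92 members. Among the other 4 controls the median SD was 0.24 (all genes 0.31), and it exceeded that of DAAO in 59 members.

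Markers of other cells moved with control 2. Its 9 oligodendrocyte markers summed to 18777 CPM, against 2013 to 5817 in the other controls and 2844 to 5699 in DAAO, with 1 marker, Opalin, at 0 in some library. The 10 Schwann cell markers summed to 26313 CPM in control 2 and to 7349 to 11637 in the other 11 libraries. Control 6 was not high in either list, at 3026 and 8677 CPM. The 6 adipocyte markers reached 51.4 CPM in control 2, against 2.21 to 11.2 in the other controls and 1.55 to 11.5 in DAAO, and 5 of the 6 were at 0 in some library. With the oligodendrocyte level of each library as a term in the fit the members' median was -0.20, with the pan-neuronal level it was -0.22 and with the skeletal muscle level -0.21, and no member passed in any of these fits. Of the 17 pan-neuronal markers, 13 were negative with all libraries (median -0.19) and 11 without controls 2 and 6 (median -0.17). In both fits 1 of the 17 passed as lower. Of all genes, 42 of 17002 did with all libraries and 318 of 17834 without controls 2 and 6. The part of Schwann cell and adipocyte RNA was not tested.

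Complex I is the largest complex of the chain. The 7 nuclear core subunits carry its flavin and iron-sulfur clusters, and 6 of 7 were negative (median log2 fold change -0.32). Without controls 2 and 6 the median was -0.13 and 7 of 7 were negative. Ndufv2 (ENSMUSG00000024099; chromosome 17, 66078638 to 66101559, build GRCm38 here and below), an iron-sulfur subunit of the module that oxidises NADH, ranged from 142 to 299 CPM in controls with a median of 203, and from 134 to 187 with a median of 155 in DAAO. Control 2 was the highest library and the ranges overlapped. Its log2 fold change was -0.44 ± 0.16 (SE, adjusted p = 0.319), or -0.19 ± 0.12 without controls 2 and 6.

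Ndufs7, which holds the last iron-sulfur cluster before ubiquinone, lay between 111 and 191 CPM in controls (median 123) and between 88.8 and 117 in DAAO (median 107). The 4 controls other than 2 and 6 spanned 111 to 126 CPM, overlapping the upper end of the DAAO range. With all libraries its log2 fold change was -0.39 ± 0.15 (adjusted p = 0.355), against -0.13 ± 0.10 without those libraries. Ndufs3 and Ndufs8, both of the arm that binds ubiquinone, had -0.32 ± 0.13 and -0.35 ± 0.15 (adjusted p = 0.384 and 0.444), which became -0.16 and -0.11. Ndufv1, the flavin-binding subunit that receives electrons from NADH, averaged 136 ± 12.8 CPM among controls and 137 ± 15.5 among DAAO libraries (SD, n = 6), a difference within its spread. Ndufs1, at -0.20 ± 0.11 and at -0.21 without controls 2 and 6, overlaps Eef1b2 on the other strand, which had more counts than Ndufs1, so its value is uncertain.

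The 29 accessory subunits surround the core and stabilise it. Of these 26 were negative with all libraries (median -0.21), against 8 of 29 without controls 2 and 6 (median 0.15). Ndufb9 (ENSMUSG00000022354; chromosome 15, 58933756 to 58939488), of the membrane arm, ranged from 66.4 to 145 CPM in controls (median 91.3) and from 58.4 to 90.5 in DAAO (median 71.97). For Ndufb9 the log2 fold change was -0.45 ± 0.17 (adjusted p = 0.365), and it was -0.16 ± 0.13 without controls 2 and 6. Ndufc1, also of the membrane arm, had -0.35 ± 0.14 (adjusted p = 0.365) and Ndufa10 had -0.25 ± 0.12 (adjusted p = 0.481). Ndufa9, which sits near the ubiquinone site, had -0.22 ± 0.11 (adjusted p = 0.529). In these 4 accessory subunits the sign was the same without controls 2 and 6, where Ndufc1 was at -0.19, Ndufa10 at -0.16 and Ndufa9 at -0.10.

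Several small accessory subunits took the opposite sign once those libraries were left out. Ndufa3 lay between 37.3 and 92.6 CPM in controls and between 48.9 and 68.0 in DAAO, and the 4 remaining controls spanned 37.3 to 51.1. Its log2 fold change was -0.06 ± 0.22 with all libraries and 0.40 ± 0.13 without (adjusted p = 0.970 and 0.0948). Ndufa3 overlaps Tfpt on the other strand, which had 3108 counts against 12721. Ndufa5 spanned 63.1 to 182 CPM in controls, with the 4 other controls at 63.1 to 89.9, and 67.5 to 99.1 in DAAO. For Ndufa5 the log2 fold change moved from -0.44 ± 0.24 to 0.08 ± 0.12. Both genes were singled out after their values were seen.

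The 8 complex I assembly factors with the Nduf prefix build the complex and do not stay in it. Ndufaf5 (ENSMUSG00000027384; chromosome 2, 140170649 to 140203689), which hydroxylates an arginine of Ndufs7, had the smallest p of all members. It ranged from 24.6 to 45.1 CPM in controls (median 35.4) and from 22.6 to 28.7 in DAAO (median 25.7), so the DAAO libraries lay at the low end of the control range or below it. Its log2 fold change was -0.47 ± 0.14 (adjusted p = 0.185), and it was -0.34 ± 0.14 without controls 2 and 6 (adjusted p = 0.186). Ndufaf4, a partner of Ndufaf3, had -0.28 ± 0.14 and -0.32 ± 0.14 in the same fits (adjusted p = 0.516 and 0.234). It was highest in control 5 (42.5 CPM) and lowest in a DAAO library (23.6 CPM). Ndufaf1, which assists the membrane arm, and Ndufaf7, a methyltransferase, had -0.27 ± 0.14 and -0.20 ± 0.12 (adjusted p = 0.567 and 0.631), or -0.14 and -0.12 without controls 2 and 6. Of the 8, 7 were negative with all libraries (median -0.19) and 5 without controls 2 and 6 (median -0.11).

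**Figure D3:**
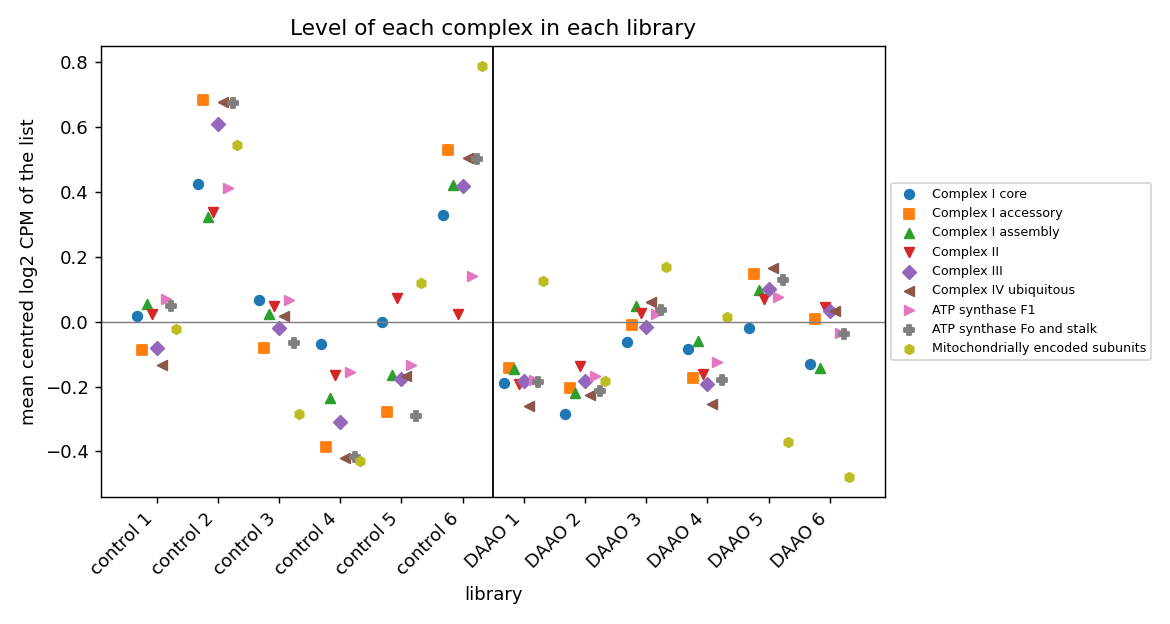
Each symbol is the mean centred log2 CPM of a list (vertical axis, prior count 2) in 1 library (horizontal axis). In controls 2 and 6 every symbol is above 0, from 0.02 to 0.79, and complex II and the F1 head of ATP synthase stand lower there than the accessory subunits of complex I.

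Complex II, succinate dehydrogenase, is made of 4 nuclear subunits, and 3 of the 4 were negative with all libraries (median -0.14) and 2 of the 4 without controls 2 and 6 (median -0.03). Sdha, the flavoprotein that oxidises succinate, ranged from 217 to 278 CPM in controls (median 270) and from 209 to 274 in DAAO (median 226), with a log2 fold change of -0.14 ± 0.11 (adjusted p = 0.743). Sdhb, its iron-sulfur partner, ranged from 131 to 240 CPM (median 179) and from 124 to 185 (median 148), with -0.28 ± 0.14 (adjusted p = 0.522). The groups overlapped in both genes. The membrane anchors Sdhc and Sdhd had -0.13 ± 0.13 and 0.06 ± 0.13 (adjusted p = 0.812 and 0.944). Without controls 2 and 6 the 4 values lay between -0.18 for Sdha and 0.06 for Sdhc.

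Complex III had 9 of 9 members negative with all libraries (median -0.18) and 4 of 9 without controls 2 and 6 (median 0.02). Uqcrc2, a core protein of the complex, ranged from 121 to 152 CPM in controls (median 130) and from 97.6 to 127 in DAAO (median 109). Its log2 fold change was -0.27 ± 0.10 (adjusted p = 0.362), and it was nearly as large without controls 2 and 6, at -0.25 ± 0.10 (adjusted p = 0.180). Uqcrb, a small subunit near the ubiquinone site, ranged from 54.3 to 123 CPM (median 77.2) and from 49.6 to 72.1 (median 62.9), with -0.40 ± 0.18 (adjusted p = 0.460). Its value without the 2 libraries was -0.10 ± 0.13, and control 6 was its highest library. Uqcrfs1, the Rieske iron-sulfur protein, and Uqcrc1, the other core protein, had -0.19 ± 0.12 and -0.15 ± 0.11 (adjusted p = 0.664 and 0.725), or -0.01 and -0.06 without those libraries. Cyc1, cytochrome c1, stood at 130 ± 22.2 and 124 ± 8.03 CPM.

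Complex IV has isoforms for several of its nuclear subunits. The 12 ubiquitous members included the most abundant transcripts per length of the whole set. Cox6a1 (ENSMUSG00000041697; chromosome 5, 115345642 to 115348981) had the highest level of all tested members, at 1508 ± 345 TPM (counts scaled for gene length and library size) in controls and 1441 ± 327 in DAAO. Cox8a followed with 1269 ± 204 and 1270 ± 350 TPM, and Cox4i1 with 1135 ± 321 and 888 ± 150. The levels of Cox6a1 and Cox8a differed by less than their SD. In Cox6a1 the log2 fold change was -0.06 ± 0.18 (adjusted p = 0.964), or 0.27 ± 0.13 without controls 2 and 6.

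With all libraries 10 of the 12 ubiquitous members were negative (median -0.23), and without controls 2 and 6 this held for 3 of 12 (median 0.10). Ndufa4, named for complex I but now counted with complex IV, ranged from 264 to 562 CPM in controls (median 404) and from 248 to 372 in DAAO (median 304). Its log2 fold change of -0.41 ± 0.18 (adjusted p = 0.439) was -0.15 ± 0.14 without those libraries. Cox6c, a small membrane subunit, had -0.44 ± 0.21 (adjusted p = 0.496), or -0.11 without them, and it overlaps Vps13b on the other strand. Cox4i1, a regulatory subunit, ranged from 362 to 996 CPM in controls and from 406 to 586 in DAAO. The value of 996 CPM was that of control 2, and the log2 fold change went from -0.33 ± 0.20 (adjusted p = 0.6254) to 0.04 ± 0.13 without controls 2 and 6. Cox5a, a subunit on the matrix side, had -0.25 ± 0.14 (adjusted p = 0.569), or -0.15 without them.

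The tissue isoforms of complex IV were at low levels, and those typical of muscle followed single libraries. Cox6a2 (ENSMUSG00000030785; chromosome 7, 128205435 to 128206387), the heart and skeletal muscle form of subunit VIa, stood at 0, 7.05, 0.747, 23.4, 8.17 and 0 CPM in controls 1 to 6. In DAAO 1 to 6 it stood at 0.823, 2.30, 2.63, 0.380, 1.51 and 1.52 CPM. Controls 4, 5 and 2 were high and controls 1, 3 and 6 were at or near 0, so that the DAAO libraries lay inside the control range. The 12 skeletal muscle markers summed to 17.5, 610, 66.5, 2815, 1092 and 14.7 CPM in controls 1 to 6 and to between 6.69 and 470 CPM in DAAO. In that list 4 of the 12 markers, Myl1, Myh1, Myh2 and Tnnc2, were at 0 in some library. The log2 fold change of Cox6a2 was -2.10 ± 1.16 (adjusted p = 0.587) and -2.42 ± 1.17 without controls 2 and 6, and it was 0.92 with the skeletal muscle level of each library as a term in the fit.

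Cox8b, the muscle form of subunit VIII, ranged from 0.149 to 10.9 CPM in controls (median 2.83) and from 0 to 2.35 in DAAO (median 0.530). Cox7a1, the muscle and brown fat form of subunit VIIa, ranged from 2.77 to 17.5 CPM (median 3.74) and from 1.30 to 4.42 (median 2.50). Both were highest in control 2. Their log2 fold changes were -2.33 ± 1.01 and -1.25 ± 0.47 (adjusted p = 0.453 and 0.348), and they were -2.03 ± 0.96 and -0.50 ± 0.40 without controls 2 and 6. Control 2 also had the most transcripts of Ucp1, the uncoupling protein of brown fat, at 7.05 CPM against 0 to 1.56 in the other 11 libraries, and of Fabp4, a fatty acid binding protein of adipocytes, at 39.0 against 1.55 to 8.97. The part of adipose RNA in these values was not tested.

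**Figure D4:**
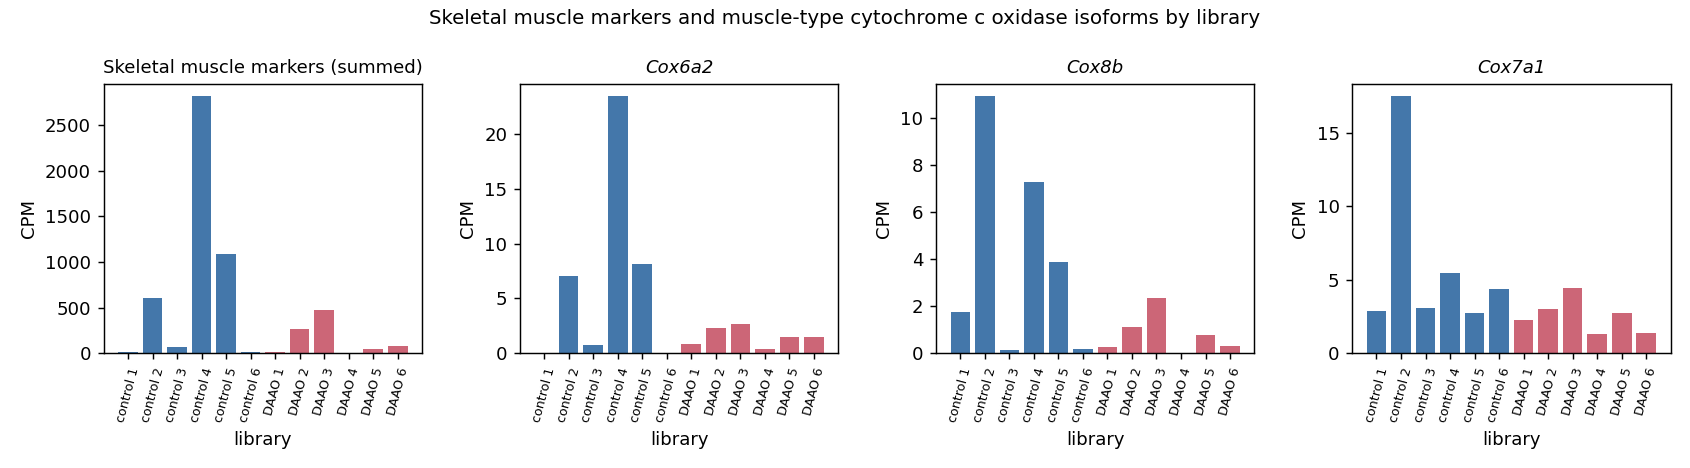
Bars give the summed CPM of 12 skeletal muscle markers (left) and the CPM of Cox6a2, Cox8b and Cox7a1 in each library, blue for control and red for DAAO, each panel on its own linear axis from 0. Cox6a2 peaks in control 4 with the muscle markers, at 23.4 CPM, and Cox8b and Cox7a1 peak in control 2, at 10.9 and 17.5 CPM.

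Of the other isoforms, Ndufa4l2, a relative of Ndufa4 that hypoxia induces, had the lowest level per length of the tested members, 4.10 ± 2.06 TPM in controls and 6.06 ± 1.37 in DAAO. It ranged from 0.498 to 2.69 CPM in controls (median 1.39) and from 1.58 to 2.87 in DAAO (median 2.74), with a log2 fold change of 0.61 ± 0.44 (adjusted p = 0.705), or 0.75 without controls 2 and 6. It overlaps Shmt2 on the other strand, which had 5730 counts against 455, so its value is uncertain. As a share of Ndufa4 and Ndufa4l2 together, per length, it made up 0.487% ± 0.223 among controls and 0.995% ± 0.246 among DAAO libraries (SD, n = 6), with overlapping ranges. Cox4i2, the lung form that replaces Cox4i1 in part, and Cox6b2, the testis form of Cox6b1, had log2 fold changes of 0.29 ± 0.37 and 0.32 ± 0.45 (adjusted p = 0.882 and 0.897), which were 0.31 and 0.96 without those libraries. Cox7b2 was at 0 to 1.05 CPM in controls and 0 to 0.154 in DAAO, with 0 counts in 3 libraries of each group.

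ATP synthase joins the catalytic F1 head to the membrane part Fo through stalks. All 5 F1 genes were negative with all libraries (median -0.19), as were 3 of 5 without controls 2 and 6 (median -0.14). Atp5b (ENSMUSG00000025393; chromosome 10, 128083273 to 128090391), the catalytic beta subunit, stood between 763 and 1021 CPM in controls (median 976) and between 757 and 879 in DAAO (median 806). The lowest control value was that of control 6, and the other 5 controls lay above every DAAO library. With all libraries Atp5b had a log2 fold change of -0.22 ± 0.11 (adjusted p = 0.542). Without controls 2 and 6 the controls spanned 940 to 1021 CPM, the log2 fold change was -0.28 ± 0.10 (adjusted p = 0.132), and Atp5b was the 1 member whose groups did not overlap, in a fit where 6.47% of all genes did not.

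Atp5a1, the alpha subunit, ranged from 566 to 811 CPM in controls (median 740) and from 591 to 781 in DAAO (median 682), a log2 fold change of -0.08 ± 0.12 (adjusted p = 0.905), or -0.16 without controls 2 and 6. In contrast to most members, control 6 was its lowest control too. Atp5c1, the rotating gamma subunit, had -0.19 ± 0.11 (adjusted p = 0.573), or -0.14 without them. The short Atp5e, the epsilon subunit, went from -0.29 ± 0.30 (adjusted p = 0.844) to 0.28 ± 0.20 without controls 2 and 6. It stood at 306 CPM in control 2 and at 66.8 to 140 in the 4 controls other than 2 and 6.

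In Fo and the stalks 9 of 11 members were negative with all libraries (median -0.29) and 5 of 11 without controls 2 and 6 (median 0.02). Atp5j, coupling factor 6 of the peripheral stalk, ranged from 116 to 228 CPM in controls (median 160) and from 100.4 to 142 in DAAO (median 124). The log2 fold change of Atp5j was -0.42 ± 0.15 (adjusted p = 0.308), or -0.20 ± 0.12 without those libraries. It overlaps Gabpa, a gene on the other strand that encodes a transcription factor of this pathway, with 7451 counts against 31985. Atp5j2, subunit f, and Atp5h, subunit d of the peripheral stalk, had -0.41 ± 0.17 and -0.41 ± 0.20 (adjusted p = 0.402 and 0.504), which became -0.17 and -0.02. Atp5s, a factor needed for the coupling of the enzyme, ranged from 21.8 to 32.0 CPM in controls and from 19.7 to 25.6 in DAAO, with -0.30 ± 0.13 (adjusted p = 0.443) and -0.26 ± 0.14 without controls 2 and 6.

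The 3 genes Atp5g1, Atp5g2 and Atp5g3 encode the same mature c subunit, which forms the proton-driven rotor ring, and differ in their import sequences. Per length, Atp5g3 gave 60.1% ± 2.64 of their summed transcripts in controls and 61.4% ± 2.08 in DAAO (SD, n = 6). Atp5g2 gave 21.8% ± 1.82 and 23.5% ± 2.61, and Atp5g1 gave 18.1% ± 2.36 and 15.02% ± 1.44. The range of the Atp5g1 share was 14.2% to 21.2% in controls and 13.4% to 16.4% in DAAO, so the groups overlapped. Their log2 fold changes were -0.29 ± 0.15 for Atp5g1, 0.09 ± 0.13 for Atp5g2 and -0.01 ± 0.17 for Atp5g3 (adjusted p = 0.516, 0.903 and 0.995). Their values without controls 2 and 6 were -0.10, 0.24 and 0.25.

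The height of controls 2 and 6 went with gene length. The members are short, with a median of 1631 bases in the deposited table against 4412 for all protein-coding genes tested. Relative to the mean of controls 1, 3, 4 and 5, control 2 was higher by a median log2 of 1.03 in the 23 members of up to 1000 bases and 0.99 in the 35 members above 1000 and up to 2000 bases. It was higher by 0.49 in the 23 above 2000 and up to 4000 bases and by 0.35 in the 11 above 4000, a bin too small to order against the one before. In the same bins the other protein-coding genes had medians of 0.98, 0.52, 0.19 and -0.19 in control 2. In control 6 the members had 0.84, 0.63, 0.37 and 0.39, and the other protein-coding genes 0.65, 0.36, 0.11 and -0.13. Short genes of other kinds were thus high in these libraries too. In each bin the members' median was above that of the other genes, with the smallest gap in control 2 up to 1000 bases. Above 4000 bases the lengths are not alike, since the longest member has 8086 bases and the longest protein-coding gene tested 123179.

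The mean of the DAAO libraries, set against the same 4 controls, was 0.25, 0.09, -0.12 and -0.05 in the members of these bins, and 0.30, 0.18, 0.09 and -0.03 in the other protein-coding genes. Across the 92 members, Spearman's rho between length and the difference from the 4 controls was -0.52 for control 2, -0.33 for control 6 and -0.41 for the DAAO mean. Across 14671 protein-coding genes it was -0.39, -0.28 and -0.24. The genes share libraries and are not independent, so no p is given. In a fit chosen after seeing the data, in which the length trend of each library was removed, the members' median was -0.32 against -0.09 for all genes, and 87 of 92 were negative. The share of all genes that were negative was not computed there. Ndufaf5 and Ndufb9 fell in that fit (-0.59 and -0.56, adjusted p = 0.0485 for both), where 98 of all 17002 genes tested fell and 79 rose. Without controls 2 and 6 as well the median was -0.15 against -0.07 for all genes, 66 were negative, and no member passed (smallest adjusted p = 0.0556). What gave rise to the length trend was not tested.

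**Figure D5:**
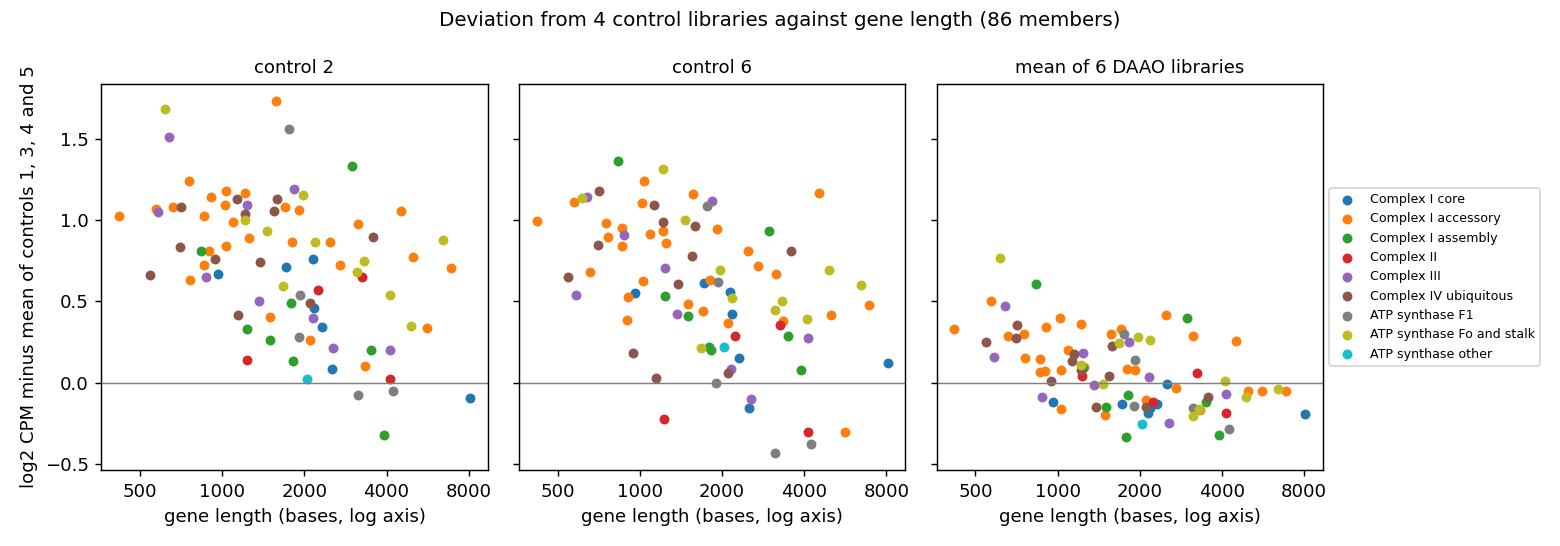
Each point is a member (86 outside the complex IV tissue isoforms), placed by gene length in bases on a log axis and by its log2 CPM minus the mean of controls 1, 3, 4 and 5, for control 2, control 6 and the mean of the 6 DAAO libraries. The short members stand highest in control 2 and control 6, and the DAAO means lie closer to 0.

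Most partner genes of the subunits were also negative. Of the 12 tested subunits encoded by the mitochondrial genome none passed and 10 were negative (median -0.38), or 8 without controls 2 and 6 (median -0.02). Controls 2 and 6 stood apart as high in these same transcripts, so leaving them out was bound to raise DAAO minus control for this list. The complex I subunit mt-Nd2 ranged from 3182 to 6225 CPM in controls (median 3878) and from 2223 to 3590 in DAAO (median 2889), a log2 fold change of -0.60 ± 0.19 (adjusted p = 0.225). Its highest values were those of control 6 and control 2, and without them it was -0.31. Of 16 tested carriers, ubiquinone synthesis enzymes and membrane channels none passed and 14 were negative (median -0.20), or 13 without controls 2 and 6 (median -0.13). Cycs, cytochrome c itself, ranged from 117 to 188 CPM in controls (median 149) and from 95.9 to 140 in DAAO (median 112), with -0.42 ± 0.14 (adjusted p = 0.230), or -0.25 without controls 2 and 6. Vdac2, a channel of the outer membrane, had -0.32 ± 0.14 (adjusted p = 0.415), or -0.16 without them.

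Another list held 40 tested genes for assembly, most of them factors of complexes II to V. The list also named complex I factors without the Nduf prefix, such as Timmdc1 and Acad9, and Atpif1, an inhibitor of ATP synthase. Of the 40 none passed with all libraries and 33 were negative (median -0.15), or 23 without controls 2 and 6 (median -0.09). Atpaf1, a chaperone that assembles the F1 head, ranged from 25.9 to 46.2 CPM in controls (median 29.7) and from 19.4 to 24.2 in DAAO (median 22.2). Every DAAO library was below every control library, and its log2 fold change was -0.57 ± 0.15 (adjusted p = 0.102). Without controls 2 and 6 it fell, with -0.69 (adjusted p = 0.0175), and so did Lrpprc, which stabilises mitochondrial mRNAs (-0.43, adjusted p = 0.0361). These were the 2 calls among the 40, both lower, in a fit that called 318 of all 17834 genes tested lower. Sdhaf3, an assembly factor of succinate dehydrogenase, had -0.61 ± 0.19 (adjusted p = 0.204), or -0.38 without those libraries.

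Of 13 tested regulators of respiratory chain transcription, 1 fell with all libraries and none rose, where 0.247% of all genes fell and 0.506% rose. This was Esrrg, the estrogen-related receptor gamma, which ranged from 17.1 to 37.2 CPM in controls (median 24.5) and from 5.83 to 12.5 in DAAO (median 8.48). Every DAAO library lay below every control library, and the log2 fold change was -1.54 ± 0.22 (adjusted p = 0.00217). Esrrg is also a marker of proprioceptors and large neurons. The 9 markers of these cells, Esrrg among them, summed to between 593 and 1135 CPM in controls and between 418 and 611 CPM in DAAO. All 9 were negative with all libraries (median -0.68), and 4 passed as lower. Their mean centred log2 CPM lay between 0.14 and 0.88 in controls and between -0.59 and -0.19 in DAAO, without overlap. The part of a change in these cells was not tested. In controls 2 and 6, where most subunit transcripts were highest, Esrrg had its 2 lowest control values, 17.1 and 20.5 CPM.

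In the edgeR test Esrrb and Ppargc1a, the gene of PGC-1alpha, passed without controls 2 and 6, and not with all 12 libraries. Without controls 2 and 6 it called 3 of the 13 regulators lower, Esrrg among them, where 318 of all 17834 genes tested were called lower. Esrrb ranged from 2.15 to 5.28 CPM in controls and from 1.03 to 1.997 in DAAO, with -1.39 ± 0.34 (adjusted p = 0.0816), or -1.39 without those libraries (adjusted p = 0.0495). Ppargc1a ranged from 15.2 to 31.5 CPM and from 11.8 to 16.8, with -0.66 ± 0.19 (adjusted p = 0.156), or -0.87 without them (adjusted p = 0.00731). As with Esrrg, its 2 lowest control values were those of controls 2 and 6. The other regulators were within their spread. Nrf1 stood at 17.4 ± 2.79 and 18.2 ± 3.66 CPM, Gabpa at 30.6 ± 6.87 and 36.4 ± 5.78, Esrra at 44.2 ± 14.3 and 43.8 ± 6.64 and Tfam, the packaging factor of mitochondrial DNA, at 25.8 ± 4.69 and 27.4 ± 4.33.

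Since these regulators bind DNA near start sites, the promoters of the members were searched for their motifs, in RefSeq sequence of build GRCm38.p6, from 250 bases before to 50 bases after each start, on both strands. A promoter was found for 74 of the 94 names. The NRF1 motif core GCGCANGCG was present for 22 of 74 (29.7%), against 6.25% of all 32851 promoters and 13.4% of the other 12041 tested genes that had one. The ERR motif TCAAGGTCA was present for 2 of 74, Atp5g3 and Sdhd (2.70%, against 0.423% and 0.332%). The ETS motif CCGGAAG, which GABP can bind, was present for 18 (24.3%, against 8.86% and 17.6%), and the YY1 motif core AAGATGGCG for 8 (10.8%, against 1.40% and 3.01%). No matches of different motifs overlapped, and 35 of the 74 had none of the 4. A match is a description of the sequence, not of binding, and no match says only that these letters are not in the window.

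The sequences below show such matches in promoters of members described above, each read 5′ to 3′ on the strand of the gene with the motif in capitals and up to 20 bases on each side. Atp5g3, the main source of the c subunit, is shown because it is 1 of the 2 members with the ERR motif, there on the opposite strand and starting 52 bases before the start (window chr2:73911350-73911398, minus strand). The NRF1 matches are those of Atp5g2 (chr15:102671061-102671109, minus strand, 42 bases before the start), Cox6a1 as the highest member per length (chr5:115349092-115349140, minus, 162 bases), Ndufaf4 (chr4:24897950-24897998, plus, 113 bases) and Sdhd (chr9:50603900-50603948, minus, 79 bases). The ETS match of Atp5j (chr16:84835011-84835057, minus, 61 bases) lies where this gene overlaps Gabpa.
Atp5g3, ERR: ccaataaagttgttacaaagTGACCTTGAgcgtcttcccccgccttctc
Atp5g2, NRF1: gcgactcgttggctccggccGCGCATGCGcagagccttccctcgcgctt
Cox6a1, NRF1: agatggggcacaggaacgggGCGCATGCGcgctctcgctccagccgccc
Ndufaf4, NRF1: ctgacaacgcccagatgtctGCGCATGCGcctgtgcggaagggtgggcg
Sdhd, NRF1: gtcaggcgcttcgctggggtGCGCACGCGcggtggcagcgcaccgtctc
Atp5j, ETS: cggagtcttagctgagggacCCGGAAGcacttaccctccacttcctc

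With all libraries Atp5g3 and Sdhd, which have the ERR motif, had log2 fold changes of -0.01 ± 0.17 and 0.06 ± 0.13. Of the genes with an NRF1 match printed here, Ndufaf4 was at -0.28 ± 0.14, Cox6a1 at -0.06 ± 0.18 and Atp5g2 at 0.09 ± 0.13. Atp5j, with the ETS match, was at -0.42 ± 0.15. In that fit the values of Atp5g3, Sdhd, Cox6a1 and Atp5g2 were smaller than their SE. Without controls 2 and 6, Atp5g3 was at 0.25, Cox6a1 at 0.27, Sdhd at 0.05 and Ndufaf4 at -0.32. The values of Atp5g2 and Atp5j without these libraries are given above.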

How the data were processed

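Total RNA of whole ganglia was sequenced in paired reads, per the labels' protocols. The authors deposited whole-number read counts per gene, not normalised, with each gene's position, biotype and length in bases. Per the submitters' processing notes the tools were HISAT2 2.0.5, FastQC and DESeq2 1.20.0, with builds GRCm38 and mm10. Which program counted the reads, with which annotation release, whether by strand and how it treated reads of several genes is not stated in the sources at hand. Of the members 35 overlap another gene with counts, 17 of them one with at least 10% of their own counts, and reads of such pairs, or of near-identical copies, may have been shared.

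All genes were kept with edgeR's filterByExpr (minimum count 10, minimum total 15), scaled by TMM and compared in R 4.3.3 by the robust quasi-likelihood test of edgeR 4.0.16, 6 DAAO against 6 control libraries, two-sided, with Benjamini-Hochberg adjustment over 17002 genes. SEs were taken as the size of the log2 fold change over the root of F. TPM used the deposited gene lengths, and list levels are means of centred log2 CPM (prior count 2). The test was tested on simulated data. Members and lists were chosen with earlier results of these data known. Named genes were up to 4 members of each list with the smallest p, the tissue isoforms, the Atp5g genes, the extremes per length and, in partner lists, those that passed or the 2 with the smallest p; the others were chosen after their values were seen. Alternatives were other scalings and filters, DESeq2 1.42.0, limma-voom (limma 3.58.1), a replicate block, marker levels as terms, and libraries left out. Removal of the length trend was added after seeing the data. The values of 1 member are not reported here, although counts and medians include it.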

Additional observations from a re-analysis of the deposited data

Results flagged for a closer look

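In 122 groups of 6 libraries, 4 held a library whose gap to its nearest neighbour, divided by the range of the group, passed Dixon's 95% critical value, while chance flags about 1 in 20. All 4 were control libraries. The ratio was 0.716 for Atp5b and 0.650 for Atp5a1, the F1 subunits with the most transcripts per length, where control 6 was the lowest library (log2 CPM 9.57 against 9.88 for its neighbour, and 9.14 against 9.48). It was 0.651 for Ndufa10, where control 6 was the highest (7.88 against 7.60). It was 0.635 for Cox7a1, where control 2 was the highest (4.14 against 2.48).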

How the results depend on the processing

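No member was called under any alternative other than removal of the length trend, which called 2 members lower and 98 of all 17002 genes tested lower. The members' median log2 fold change was -0.20 and lay between -0.26 and -0.10 as each library was left out; it was 0.054 without controls 2 and 6. The 128 genes called over the whole table (86 higher, 42 lower) became 362 with DESeq2 (217 and 145), 225 with the oligodendrocyte level as a term, 648 without controls 2 and 6 (330 and 318), 592 without them and without the length trend (212 and 380), and 61 to 322 as each library was left out. The split was 79 higher and 98 lower without the length trend, 96 and 29 with library totals alone, and 86 and 26 with the skeletal muscle level as a term. The cause was not tested.

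Among the members recomputed under every alternative, signs changed in 8. Without controls 2 and 6, Sdhc was at 0.058, Cox4i1 at 0.040, Atp5e at 0.28, Atp5g3 at 0.25 and Cox6a1 at 0.27. Atp5g3 was also at 0.037 with library totals alone and at 0.031 with limma-voom. Cox6a2 was at 0.92 with the muscle term. Without the length trend Sdhd was at -0.076 and Atp5g2 at -0.030, and without controls 2 and 6 as well Sdhd was at -0.19, Atp5e at 0.070 and Atp5g3 at 0.072. As each library was left out Sdhd ranged from -0.0070 to 0.12 and Atp5e from -0.45 to 0.0068. Atp5g3 ranged from -0.13 to 0.14 and Cox6a1 from -0.17 to 0.067, and Esrrg kept its call (adjusted p up to 0.0102). Among the partner genes, DESeq2 with all libraries called Esrrb, Atpaf1 and mt-Nd2 lower (adjusted p = 0.0030, 0.023 and 0.0495). Removal of the length trend also called these lower (adjusted p = 0.0485, 0.0416 and 0.0485). Without control 2 alone the edgeR test called Esrrb and Atpaf1 (adjusted p = 0.034 and 0.038).

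Same-numbered libraries correlated between -0.08 and 0.21, and 3 of 6 numbers fitted their own partner best, more than chance gives on average. These values do not settle whether the numbers are pairs. The labels state no pairing, so the main fit took none. With the replicate block 187 genes were called (144 higher, 43 lower) and no member, the members' median was -0.16, and Atp5g3 was at 0.032.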
